A study of Mus musculus with 12 samples.

Results

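Collagen chain genes, whose symbols are Col with a type number and a chain number, were taken from the platform annotation of a mouse gene expression array. There were 44 of them among 22180 genes with a symbol, and each is represented by its brightest probe set (a group of probes read as 1 value). The RNA came from sphere-forming cells of the dermis known as skin-derived precursors (SKPs), taken from mice aged 9 months whose strain the labels give as CD57/Bl6. Each of 4 groups had 3 arrays: uninjured skin with vehicle, and wounded skin with vehicle, with trimebutine maleate (a gut motility drug) or with alprostadil (prostaglandin E1). All 12 arrays are of secondary spheres grown with FGF2, EGF and B27, so none shows the skin itself, and no drug dose or skin site was found in the labels. According to the series text the 3 arrays of a condition are independent isolates, and their spread is what the p-values rest on.

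Collagens are proteins of 3 chains wound into a triple helix, built from repeats in which glycine takes every 3rd place. Fibrillar collagens make the ropes that carry load in the dermis, type IV chains make the mesh of basement membranes, type VI chains form beaded filaments, and FACIT collagens (fibril-associated collagens with interrupted triple helices) decorate fibrils. Dermal fibroblasts are the main makers of type I, III, V and VI collagen in skin, and granulation tissue of a wound is known for its type III collagen. Levels are given below as log2 values made by the authors by robust multi-array averaging (RMA), in which 1 unit is a doubling, and levels of different probe sets are not compared with each other.

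Markers of dermal fibroblasts and SKPs were above the array median on all 12 arrays for 9 of 10 genes, with Pdgfra, a receptor of dermal fibroblasts, at 11.19 to 12.67 and Fn1 (fibronectin) at 13.81 to 13.94. The mean level of 11 macrophage markers was 10.88 on wound alprostadil replicate 1 and 6.27 to 7.70 on the other 11 arrays. There Csf1r was 10.12 and Ctss 12.97. Mean levels of the other marker lists ranged over the 12 arrays from 6.06 to 6.63 for endothelial, 6.38 to 6.52 for keratinocyte, 6.66 to 7.24 for Schwann cell, 6.83 to 7.16 for melanocyte, 6.08 to 6.73 for adipocyte, 6.43 to 6.69 for cartilage, 6.99 to 7.44 for pericyte and smooth muscle and 6.05 to 6.75 for skeletal muscle genes. Pecam1, an endothelial adhesion molecule, was never above the array median and reached at most 6.14, and Sox10, of neural crest and Schwann cells, was 6.49 to 7.21. In RNA of whole cultures, fewer cells of a type and less RNA per cell cannot be told apart.

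Tests were limited to genes whose value exceeded the median of its array (6.57 to 6.74) on 3 or more arrays. Of the 44 collagen genes 31 were tested, 29 of them above the median on all 12 arrays. Just inside the limit was Col22a1, a FACIT chain, above the median on 3 arrays, and just outside was Col4a6 on 1 array. The 12 other untested genes were never above it: Col11a1, Col4a3, Col4a4, Col6a4, Col6a5, Col6a6, Col8a2, Col10a1, Col9a1, Col9a3, Col19a1 and Col28a1. Their values lay between 5.33 and 6.67. Among them are Col10a1, the collagen of hypertrophic cartilage, and Col9a1 and Col9a3, chains of cartilage fibrils. Tested genes numbered 10 of 11 fibrillar, 3 of 6 type IV, 3 of 6 type VI, 1 of 3 network-forming, 6 of 9 FACIT, 4 of 4 transmembrane and 2 of 2 multiplexin chains, with Col7a1 and Col26a1 besides.

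**Figure D1:**
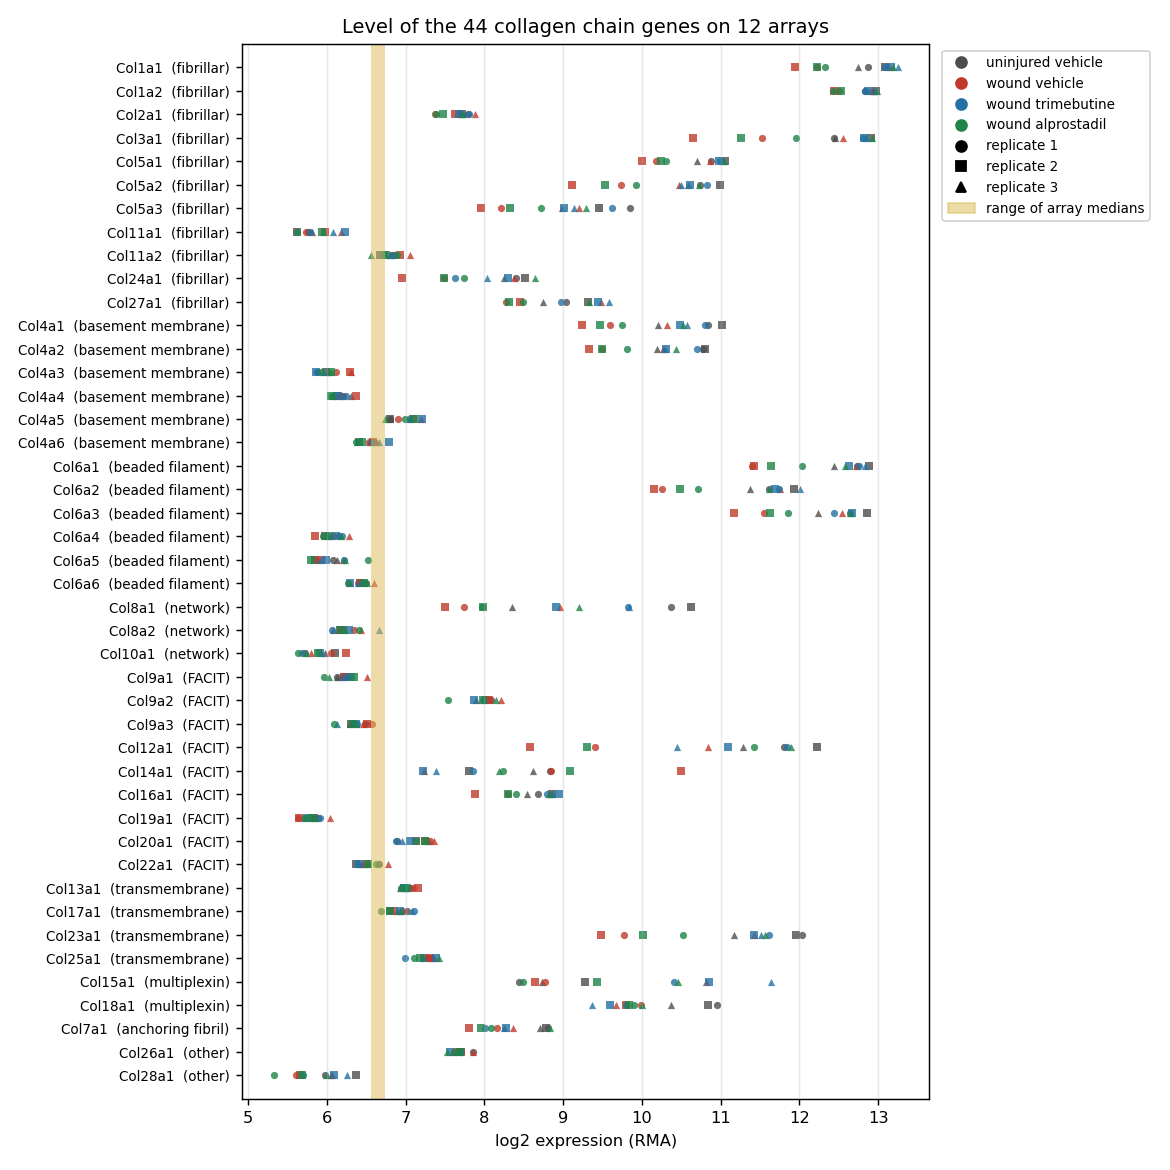
Level of each of the 44 collagen genes (rows, with class) as log2 expression on the 12 arrays, coloured by group and with a marker for each replicate; the band is the range of array medians, 6.57 to 6.74. The 12 genes that were never above the array median of the same array lie at or left of the band, and most fibrillar, type VI and type IV alpha-1 and alpha-2 chains lie far to its right.

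Many of the tested collagen genes were low on the same arrays, which came from 2 of the groups. In 16 of 31 genes the 4 lowest values were those of wound vehicle replicates 1 and 2 and wound alprostadil replicates 1 and 2, against 4.9% of all 13153 tested genes. No collagen gene had its 4 highest values there, as 5.85% of all genes did. This set of 4 arrays was picked as the one most frequent among the collagen genes themselves. The choice itself raises its share among them, so the excess over all genes is a description only. The 16 were Col1a1, Col1a2, Col2a1, Col3a1, Col5a1, Col5a2, Col5a3, Col27a1, Col4a1, Col4a2, Col6a1, Col6a2, Col6a3, Col8a1, Col16a1 and Col23a1. The same 4 arrays also stood apart over all tested genes. They had the 4 lowest places on the first principal component, from -38.9 to -19.3, with the next array, uninjured vehicle replicate 3, at -7.45. Averaged over the 31 genes after centring each on its 12-array mean, the collagen level was 0.30, 0.35 and 0.02 on the uninjured arrays, -0.43, -0.56 and 0.18 with wound vehicle, 0.21, 0.14 and 0.20 with trimebutine and -0.28, -0.40 and 0.26 with alprostadil. The mean level of the 10 fibroblast markers was 10.98 to 11.18 on those 4 arrays and 11.48 to 11.76 on the other 8. Its part in the collagen values was not tested.

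**Figure D2:**
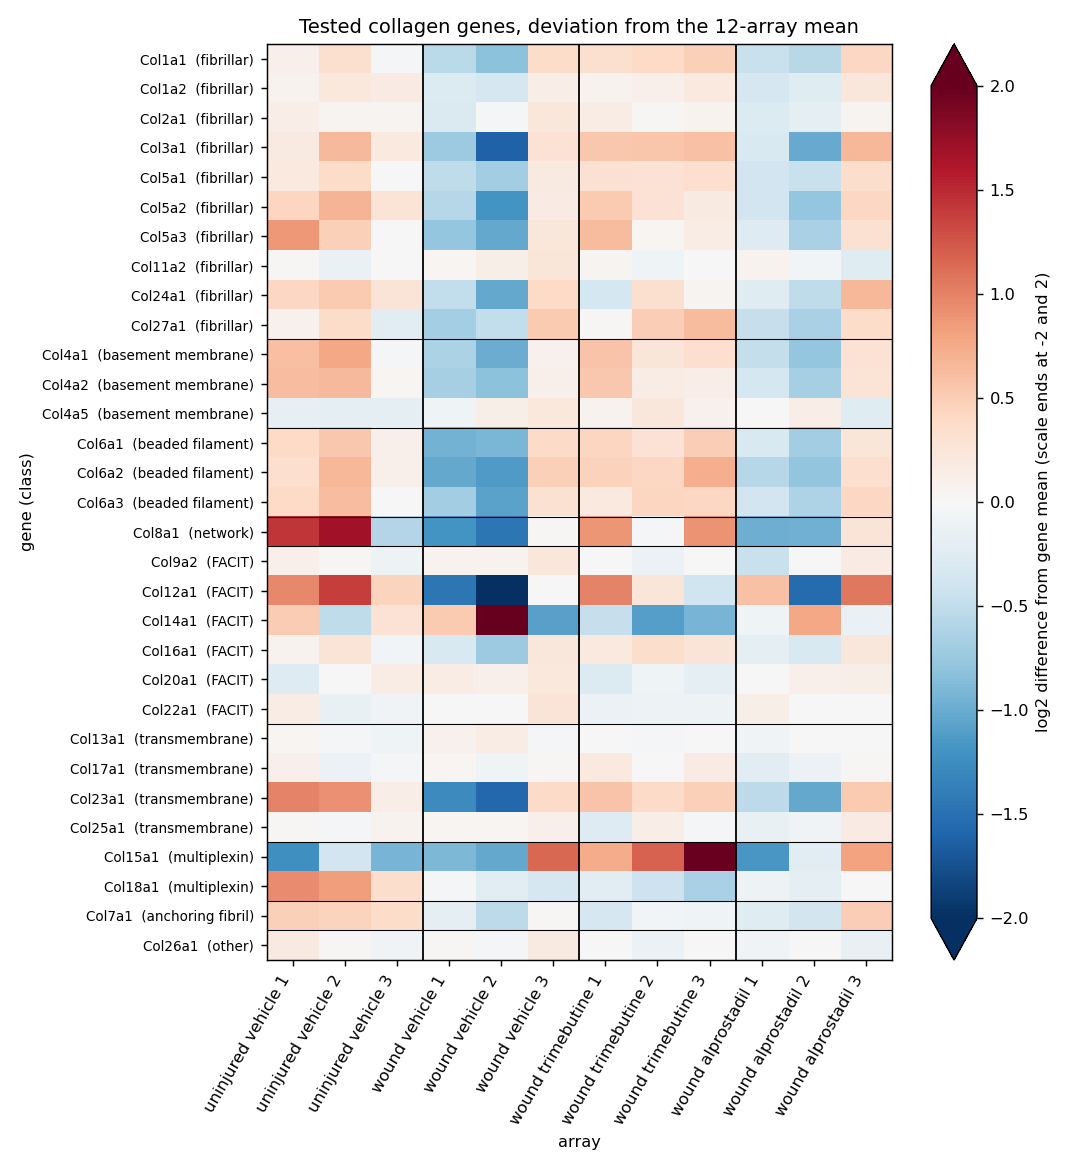
Log2 difference of each of the 31 tested collagen genes (rows, by class) from its mean over the 12 arrays (columns, by group), with colours ending at -2 and 2. Blue columns mark wound vehicle replicates 1 and 2 and wound alprostadil replicates 1 and 2 for 16 genes, while Col14a1, Col15a1 and Col18a1 show other patterns.

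Type I and type III chains form the bulk of dermal fibrils. Col1a1, the alpha-1 chain of type I, had levels of 12.87, 13.08 and 12.74 on the uninjured arrays, 12.22, 11.95 and 13.14 with wound vehicle, 13.09, 13.16 and 13.25 with trimebutine and 12.32, 12.22 and 13.19 with alprostadil. The trimebutine arrays lay close together, and in each of the other wound groups replicate 3 stood above replicates 1 and 2. Col1a2, the partner chain, had a narrower range, from 12.43 to 12.99, with means of 12.91 ± 0.07 (SD, n = 3) in uninjured vehicle, 12.61 ± 0.25 in wound vehicle, 12.89 ± 0.07 with trimebutine and 12.65 ± 0.30 with alprostadil. Col3a1 was 12.44, 12.91 and 12.45 on the uninjured arrays, 11.53, 10.64 and 12.55 with wound vehicle, 12.81, 12.82 and 12.84 with trimebutine and 11.96, 11.26 and 12.93 with alprostadil. Its SD within a group was 0.02 with trimebutine and 0.96 with wound vehicle.

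Of the type V chains, which set the diameter of fibrils, Col5a1 was 10.88, 11.05 and 10.70 on the uninjured arrays, 10.18, 10.00 and 10.87 with wound vehicle, 10.99, 10.98 and 11.03 with trimebutine and 10.30, 10.24 and 11.05 with alprostadil. Col5a2 was 10.73, 11.00 and 10.58, then 9.74, 9.12 and 10.47, then 10.83, 10.61 and 10.49, and 9.92, 9.54 and 10.72 in the same order of groups. For both chains all 3 trimebutine values lay above all 3 wound vehicle values, by little in the case of replicate 3 of wound vehicle. Of the remaining fibrillar genes, Col5a3 ranged from 7.96 to 9.84, Col24a1 from 6.96 to 8.64, Col27a1 from 8.28 to 9.59 and Col2a1, the cartilage chain, from 7.37 to 7.88.

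Promoter sequences from RefSeq (GRCm38.p6) were at hand for 35 of the 44 genes in 38 windows (not for Col1a1, Col2a1, Col4a3, Col5a2, Col9a3, Col12a1, Col14a1, Col22a1 and Col26a1), and the 250 bases before the annotated start were read. Both strands were searched for the CCAAT box, spelled CCAAT, and for the TATA box in the spelling TATAAA. The GC box was searched as GGGCGG and the AP-1 motif as TGANTCA. No motif contains another, and a match is a description of the letters only. Each window precedes 1 annotated start, and the full span of a gene can begin further upstream. CCAAT was in 13 of 38 collagen windows and 33.8% of all 32851 windows, TATAAA in 5 and 12.4%, GGGCGG in 22 and 32.7%, and TGANTCA in 1 and 6.75%. The windows of Col1a2 (chr6:4505368-4505617, plus strand) and Col3a1 (chr1:45311288-45311537, plus strand) are printed 5′ to 3′ because these genes shared their 4 lowest arrays and have different motif letters, which are in capitals: 2 GGGCGG and 1 CCAAT in Col1a2, and 1 TATAAA in Col3a1.
Col1a2: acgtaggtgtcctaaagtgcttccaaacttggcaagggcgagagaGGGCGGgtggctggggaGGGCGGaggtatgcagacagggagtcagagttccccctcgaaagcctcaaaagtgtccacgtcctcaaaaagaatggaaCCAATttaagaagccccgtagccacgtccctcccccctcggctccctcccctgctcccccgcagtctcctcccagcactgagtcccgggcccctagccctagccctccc
Col3a1: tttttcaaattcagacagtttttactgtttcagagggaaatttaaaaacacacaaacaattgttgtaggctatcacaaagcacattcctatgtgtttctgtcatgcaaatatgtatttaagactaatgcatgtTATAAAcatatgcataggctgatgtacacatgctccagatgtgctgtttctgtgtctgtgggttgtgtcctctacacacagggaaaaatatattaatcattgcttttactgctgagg

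Type IV chains alpha-1 and alpha-2 form the common network of basement membranes and are transcribed from a shared, divergent promoter. Col4a1 was 10.84, 11.01 and 10.20 on the uninjured arrays, 9.60, 9.24 and 10.32 with wound vehicle, 10.80, 10.48 and 10.57 with trimebutine and 9.75, 9.46 and 10.52 with alprostadil. Col4a2 was 10.77, 10.80 and 10.20, then 9.49, 9.33 and 10.27, then 10.69, 10.31 and 10.29, and 9.81, 9.50 and 10.43 in the same order. Both genes had the same lowest array, wound vehicle replicate 2, and the same highest, uninjured vehicle replicate 2. Col4a5, a chain of specialised basement membranes, had a range of 0.48. It was 6.81, 6.80 and 6.81 on the uninjured arrays, 6.90, 7.10 and 7.19 with wound vehicle, 7.05, 7.21 and 7.06 with trimebutine and 6.99, 7.11 and 6.74 with alprostadil. Its head-to-head neighbour Col4a6 was not tested, and neither were Col4a3 and Col4a4, the chains of kidney glomeruli.

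The starts used here from RefSeq are 11312826 for Col4a1 (minus strand) and 11312805 for Col4a2 (plus strand) on chromosome 8. Transcripts from them overlap by 22 bases, and the annotated span of Col4a1 reaches further, to 11312889. The 250 bases before each start are printed because these neighbours shared their lowest 4 arrays, with Col4a1 from chr8:11312827-11313076 on the minus strand and Col4a2 from chr8:11312555-11312804 on the plus strand. Each window lies wholly within the annotated span of the other gene. Capitals mark the same motif letters, CCAAT on the opposite strand in Col4a1, and 2 GC boxes and 1 CCAAT in Col4a2. Col4a5 and Col4a6 are also head to head on chromosome X, with 1342 bases between the starts used here. Their annotated spans come closer, beginning at 141475370 for Col4a5 and ending at 141474095 for Col4a6.
Col4a1: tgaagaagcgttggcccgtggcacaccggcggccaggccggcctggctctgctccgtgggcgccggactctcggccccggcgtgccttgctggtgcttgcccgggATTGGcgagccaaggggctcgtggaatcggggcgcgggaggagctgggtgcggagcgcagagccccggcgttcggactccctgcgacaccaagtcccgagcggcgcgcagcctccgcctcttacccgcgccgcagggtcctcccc
Col4a2: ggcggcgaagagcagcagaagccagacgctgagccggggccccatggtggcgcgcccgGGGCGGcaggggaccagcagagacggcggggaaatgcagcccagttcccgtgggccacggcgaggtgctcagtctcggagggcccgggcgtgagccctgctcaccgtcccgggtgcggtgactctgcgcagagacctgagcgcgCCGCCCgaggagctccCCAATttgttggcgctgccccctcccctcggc

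The 3 classical type VI chains link cells to the matrix around them, and all 3 shared their 4 lowest arrays. Col6a1 was 12.73, 12.88 and 12.44 on the uninjured arrays, 11.40, 11.43 and 12.72 with wound vehicle, 12.76, 12.63 and 12.83 with trimebutine and 12.04, 11.64 and 12.58 with alprostadil. Col6a2 was 11.62, 11.94 and 11.38, then 10.26, 10.15 and 11.75, then 11.75, 11.69 and 12.01, and 10.71, 10.49 and 11.62. Trimebutine values of both lay above every alprostadil value, but the wound vehicle values reached into the trimebutine range for both. Col6a3 ranged from 11.17 to 12.86.

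Ranges over the 12 arrays were above 3 log2 units for Col8a1, Col12a1, Col14a1 and Col15a1. Col8a1, a short-chain collagen of vessel walls, was 10.37, 10.62 and 8.35 on the uninjured arrays, 7.74, 7.50 and 8.97 with wound vehicle, 9.82, 8.91 and 9.83 with trimebutine and 7.97, 7.98 and 9.20 with alprostadil. Col12a1, a FACIT chain of dense connective tissue, was 11.81, 12.22 and 11.29, then 9.40, 8.58 and 10.84, then 11.84, 11.09 and 10.44, and 11.42, 9.30 and 11.89. Its range of 3.64 was the largest of the 44, and its wound vehicle values all lay below the uninjured ones. Col23a1, a transmembrane collagen, was 12.04, 11.95 and 11.17, then 9.77, 9.48 and 11.43, then 11.61, 11.43 and 11.51, and 10.52, 10.02 and 11.56.

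Col14a1, a FACIT chain that binds to fibrils, ran opposite to Col1a1. It was 8.83, 7.81 and 8.61 on the uninjured arrays, 8.84, 10.50 and 7.23 with wound vehicle, 7.86, 7.22 and 7.39 with trimebutine and 8.24, 9.09 and 8.18 with alprostadil. Its highest value was on wound vehicle replicate 2, the array on which Col1a1, Col3a1, Col12a1 and 12 other tested collagen genes were lowest. Over the 12 arrays Pearson's r with Col1a1 was -0.85 for Col14a1, 0.99 for Col5a1 and 0.00 for Col18a1. These are descriptions over 12 arrays that share the 4 groups and the 4 arrays standing apart, and no p is given. The non-collagen genes with the highest r to Col1a1 were Sec23a (0.99), Tspan11, Rcn3, Adamts12 and Lima1 (each 0.98), and 1.77% of all tested genes had an r above 0.9.

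The multiplexins, collagens of basement membrane zones whose C-terminal pieces are released as endostatin or endostatin-like fragments, had patterns of their own. Col18a1 was 10.96, 10.84 and 10.37 on the uninjured arrays, 9.99, 9.79 and 9.67 with wound vehicle, 9.80, 9.59 and 9.37 with trimebutine and 9.91, 9.84 and 10.00 with alprostadil. All 9 wound arrays, at 9.37 to 10.00, lay below all 3 uninjured ones, the 4 arrays standing apart included. Col15a1 was 8.44, 9.28 and 8.73 on the uninjured arrays, 8.77, 8.64 and 10.82 with wound vehicle, 10.40, 10.85 and 11.64 with trimebutine and 8.49, 9.44 and 10.46 with alprostadil. Trimebutine and uninjured values did not overlap, and replicate 3 of each other wound group reached the trimebutine range. Col7a1, the anchoring fibril chain that ties the epidermis to the dermis, was 8.81, 8.78 and 8.71 on the uninjured arrays, 8.17, 7.81 and 8.36 with wound vehicle, 8.00, 8.28 and 8.25 with trimebutine and 8.09, 7.96 and 8.83 with alprostadil. Only alprostadil replicate 3 among the wound arrays reached the uninjured range.

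RefSeq lists 2 start windows for Col18a1 on the minus strand, at chr10:77166531-77166780 and chr10:77113706-77113955, and the deposited values do not separate transcripts from them. They are printed, with the Col15a1 window (chr4:47207762-47208011, plus strand), because Col18a1 was the collagen gene that separated uninjured from wound arrays and Col15a1, its nearest relative, did not. Capitals mark 1 CCAAT and 3 GC boxes, all on the opposite strand, in the first Col18a1 window. The second Col18a1 window and that of Col15a1 hold none of the 4 motifs. The Col15a1 window precedes a start at 47208012, and the annotated span of the gene begins upstream of the window, at 47207655. Bases before that position were not read.
Col18a1, first window: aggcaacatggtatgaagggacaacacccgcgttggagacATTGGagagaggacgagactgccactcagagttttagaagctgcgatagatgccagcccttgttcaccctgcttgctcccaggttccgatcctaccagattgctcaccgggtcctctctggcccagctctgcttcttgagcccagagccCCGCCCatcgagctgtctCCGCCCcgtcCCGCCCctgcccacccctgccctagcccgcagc
Col18a1, second window: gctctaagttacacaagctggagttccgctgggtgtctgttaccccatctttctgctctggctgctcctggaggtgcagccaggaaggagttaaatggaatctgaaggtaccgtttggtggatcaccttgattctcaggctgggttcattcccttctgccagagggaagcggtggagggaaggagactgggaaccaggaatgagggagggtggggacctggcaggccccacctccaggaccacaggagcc
Col15a1: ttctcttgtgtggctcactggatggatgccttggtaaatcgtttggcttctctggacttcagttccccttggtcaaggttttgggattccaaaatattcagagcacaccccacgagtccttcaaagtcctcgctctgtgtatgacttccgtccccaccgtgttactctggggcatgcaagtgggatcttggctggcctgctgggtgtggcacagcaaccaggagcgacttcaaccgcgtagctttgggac

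**Figure D3:**
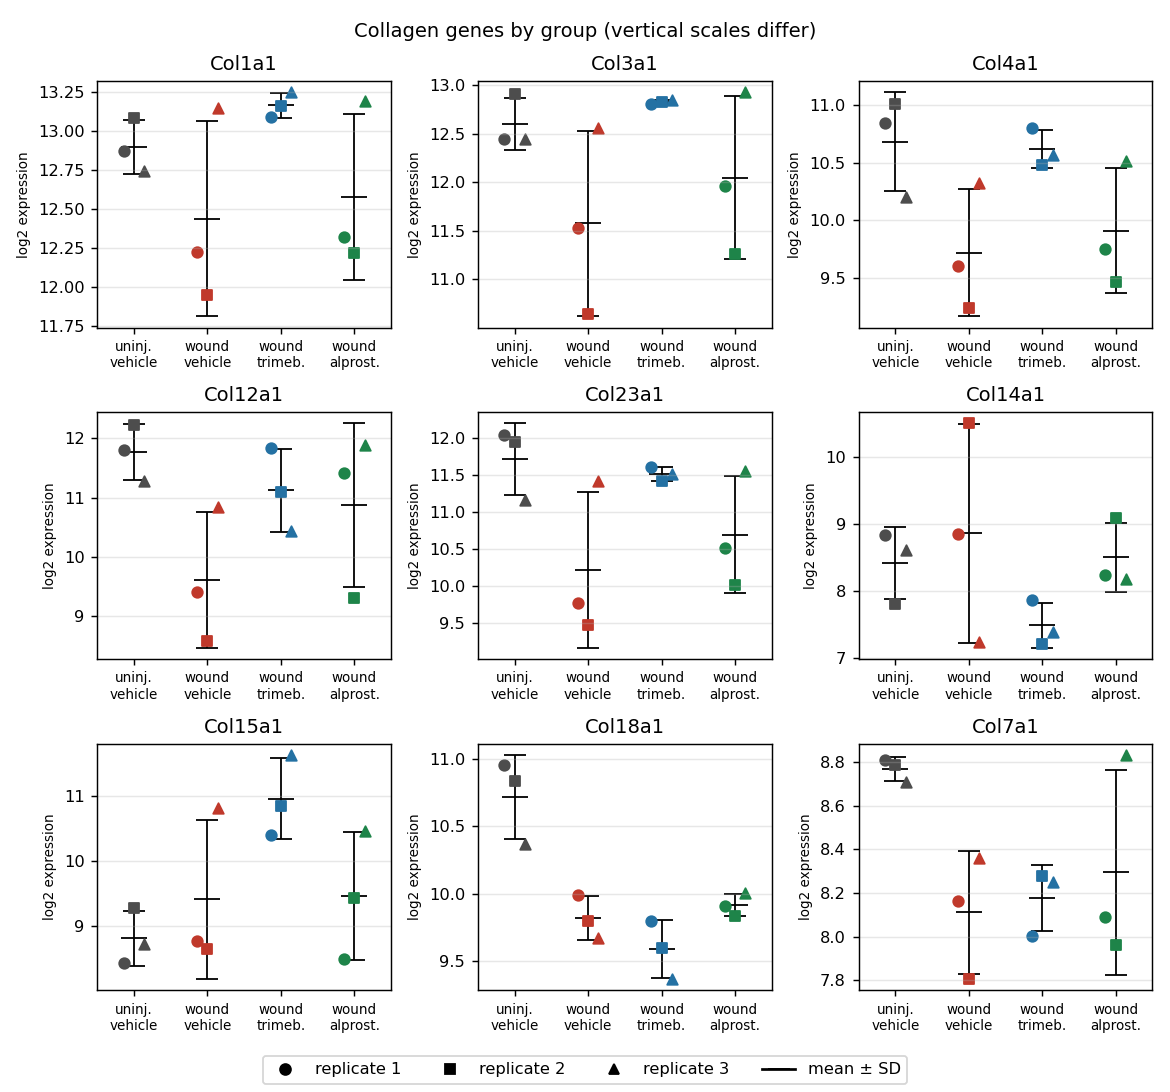
Log2 expression of 9 collagen genes by group; points are arrays, with a marker for each replicate, and bars give the mean and SD of 3 arrays (vertical scales differ). Col18a1 separates the uninjured arrays from all 9 wound arrays, and Col1a1, Col3a1, Col4a1 and Col23a1 show replicate 3 above replicates 1 and 2 in wound vehicle and wound alprostadil.

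Wound vehicle was compared with uninjured vehicle to ask how collagen genes differed after injury without a drug. In limma with Benjamini-Hochberg adjustment over the 13153 genes, 0 of 31 collagen genes passed 0.05, where 0.0456% of all genes passed. At an unadjusted p under 0.05 there were 12 lower and 1 higher, against 8.24% and 4.75% of all genes. The median difference was -0.46 log2 units with 20 of 31 below 0, and over all tested genes it was 0.01 with 48.6% below 0. Over all 44 collagen genes, untested ones included, it was -0.051. The chains share arrays on which they were low together, so these counts are not those of separate results. Without wound vehicle replicate 3 the median was -0.78, and with array weights 22 collagen genes passed, as did 38% of all genes.

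By class, 9 of 10 fibrillar genes lay below 0 in that comparison (median -0.49), as did all 3 type VI genes (-0.84), 2 of 3 type IV genes (-0.90) and 2 of 6 FACIT genes (0.11). The smallest p belonged to Col18a1, which differed by -0.90 ± 0.16 (SE, n = 3 per group; limma adjusted p = 0.109). It passed without uninjured vehicle replicate 3 (adjusted p = 0.0249, difference -1.08). Next came Col7a1 (-0.66 ± 0.21, adjusted p = 0.263), Col4a2 (-0.90 ± 0.30, 0.270) and Col12a1 (-2.16 ± 0.72, 0.271). Col23a1 and Col4a1 differed by -1.49 ± 0.51 and -0.97 ± 0.33, each with an adjusted p of 0.285. Groups did not overlap for 4 genes on the lower side, Col18a1, Col7a1, Col12a1 and Col5a2, and for 2 on the higher, Col4a5 and Col11a2, where the share of all genes was 10% lower and 8.01% higher.

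Trimebutine with wounding was compared with wound vehicle to ask what the drug changed. None of the 31 genes passed in limma (0% of all genes did; smallest adjusted p = 0.528), and 14 were higher and 1 lower at an unadjusted p under 0.05, against 6.38% and 3.05% of all genes. The median difference was 0.53, with 9 of 31 below 0 against 50% of all genes, whose median was 0.00. Over all 44 collagen genes it was 0.08. Fibrillar genes had a median of 0.62 (9 of 10 above 0), type IV genes 0.74 and type VI genes 0.89 (each 3 of 3), and FACIT genes -0.17 (2 of 6). The median was 0.30 to 0.84 as single arrays were left out, and with array weights 21 collagen genes passed, as did 30.7% of all genes.

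The smallest p in the trimebutine comparison was that of Col20a1, a FACIT chain, at -0.34 ± 0.10 (SE, n = 3 per group). Its levels were 6.89, 7.14 and 7.30 on the uninjured arrays, 7.30, 7.24 and 7.36 with wound vehicle, 6.88, 7.06 and 6.96 with trimebutine and 7.14, 7.24 and 7.26 with alprostadil, so that the trimebutine values lay below those of both other wound groups. Then followed Col4a1 (0.90 ± 0.33), Col6a2 (1.09 ± 0.41), Col3a1 (1.25 ± 0.47), Col6a1 (0.89 ± 0.34) and Col5a1 (0.65 ± 0.25), each with a limma adjusted p of 0.528. Groups did not overlap for Col4a1, Col4a2, Col3a1, Col5a1 and Col5a2 on the higher side and Col20a1, Col22a1 and Col9a2 on the lower, where 9.21% and 6.63% of all genes did not.

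Alprostadil with wounding was compared with wound vehicle in the same way. None of the 31 genes passed in limma (0% of all genes did; adjusted p = 0.998 for each) and 0 had an unadjusted p under 0.05, where 1.68% of all genes were lower and 1.07% higher. Groups overlapped for all 31, where 3.12% of all genes did not on the lower and 2.78% on the higher side. The median difference was 0.14, with 12 of 31 below 0 against 40.6% of all genes, and it was -0.09 to 0.43 as single arrays were left out. Over all 44 collagen genes, untested ones included, the median was -0.027. The 6 smallest p were those of Col11a2 (-0.21 ± 0.10; SE, n = 3 per group), Col12a1 (1.26 ± 0.72), Col9a2 (-0.22 ± 0.14), Col26a1 (-0.13 ± 0.09), Col13a1 (-0.10 ± 0.07) and Col4a5 (-0.12 ± 0.11). In this fit 95% limits were -0.55 to 0.82 for Col1a1 and -0.58 to 1.52 for Col3a1.

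Same-numbered arrays of these 2 groups deviated together across all genes, so the differences are also given within pairs. The pairing was inferred from these same values, and pair 1 holds the alprostadil array with high macrophage markers. Col3a1 was higher with alprostadil by 0.43, 0.61 and 0.37 in pairs 1, 2 and 3, Col12a1 by 2.02, 0.72 and 1.05, and Col1a1 by 0.10, 0.27 and 0.045. In all, 13 of 31 collagen genes were higher in all 3 pairs, against 15.6% of all genes, and 2 were lower in all 3, against 9.76%. The replicate block in a fit of only these 6 arrays was chosen after the values had been seen, because same-numbered arrays deviated together. Its p-values are therefore descriptions only. With it 8 collagen genes had an unadjusted limma p under 0.05 on the higher side, where 2.51% of all genes did. On the lower side 0 did, where 1.2% of all genes did. The 8 were Col3a1 (0.47, 95% limits 0.21 to 0.73), Col12a1 (1.26, 0.57 to 1.96), Col23a1, Col24a1, Col8a1, Col5a2, Col5a3 and Col6a3. None passed after adjustment (limma adjusted p = 0.920 for each), and for Col1a1 the limits were -0.12 to 0.39.

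Among the 6 genes with the smallest p in the unpaired alprostadil comparison, Col11a2, Col9a2, Col26a1 and Col13a1 had ranges of 0.23 to 0.67 over the 12 arrays. Col11a2, a cartilage chain, was 6.83, 6.67 and 6.80 on the uninjured arrays, 6.85, 6.94 and 7.05 with wound vehicle, 6.86, 6.72 and 6.80 with trimebutine and 6.89, 6.76 and 6.56 with alprostadil. Col9a2 was 8.09, 8.02 and 7.89, then 8.06, 8.06 and 8.21, then 7.99, 7.87 and 8.00, and 7.54, 7.98 and 8.15, and its lowest value was that of the array with high macrophage markers. Col26a1 was 7.86, 7.70 and 7.61, then 7.70, 7.66 and 7.86, then 7.69, 7.57 and 7.68, and 7.61, 7.69 and 7.53. For all 3 genes the alprostadil and wound vehicle values overlapped. Col13a1, a transmembrane chain, was 7.06, 6.98 and 6.93, then 7.10, 7.16 and 7.00, then 7.00, 6.98 and 7.01, and 6.94, 7.02 and 7.00.

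**Figure D4:**
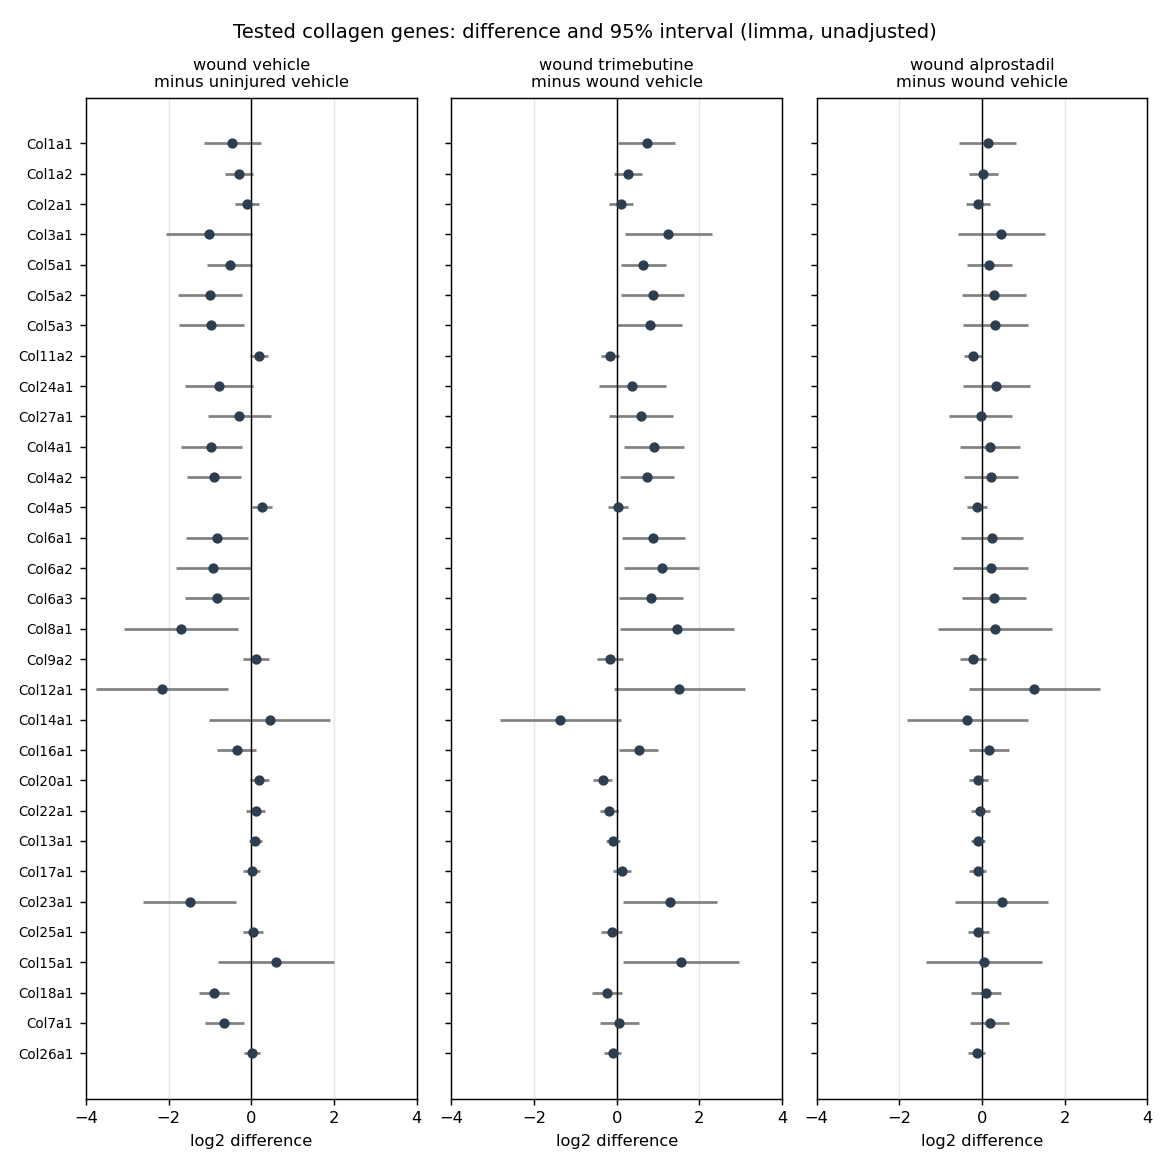
Log2 difference of the 31 tested collagen genes (points) with its unadjusted 95% interval from limma (lines) for wound vehicle minus uninjured vehicle, wound trimebutine minus wound vehicle and wound alprostadil minus wound vehicle. Differences lie mostly below 0 in the first (20 of 31) and above 0 in the second (22 of 31), and all 31 intervals include 0 in the third; the first 2 panels share the wound vehicle arrays.

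The drugs were compared with each other within wounded skin. No collagen gene passed in limma (0 of 31, and 0% of all genes; smallest adjusted p = 0.752), 2 were higher and 1 lower with trimebutine at an unadjusted p under 0.05, against 2.5% and 1.92% of all genes, and the median difference was 0.25 with 6 of 31 below 0, against 53.8% of all genes. Col17a1, the hemidesmosome collagen of keratinocytes, differed by 0.23 ± 0.09 (SE, n = 3 per group), with levels of 7.11, 6.93 and 7.08 against 6.68, 6.80 and 6.95 that overlapped, and 7.01, 6.81 and 6.89 on the uninjured and 6.96, 6.83 and 6.94 on the wound vehicle arrays. Col20a1 differed by -0.25 ± 0.10. Col15a1 differed by 1.50 ± 0.63, Col4a1 by 0.71 ± 0.33, Col6a2 by 0.88 ± 0.41 and Col18a1 by -0.33 ± 0.16, each with a limma adjusted p of 0.752. Groups did not overlap for Col6a1 and Col6a2 on the higher side and for Col18a1, Col14a1, Col20a1 and Col22a1 on the lower, where 5.21% and 6.03% of all genes did not. Of these, Col20a1 and Col22a1 lay near the array medians.

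Same-numbered arrays of the drug groups also deviated together. These pairs too were inferred from the values, and pair 1 again holds the alprostadil array with high macrophage markers. The block used below was likewise chosen after the values had been seen, so its p-values are descriptions only. Within pairs Col15a1 was higher with trimebutine than with alprostadil by 1.91, 1.42 and 1.17, Col6a2 by 1.03, 1.21 and 0.39, and Col1a1 by 0.76, 0.94 and 0.059. In all 3 pairs 12 of 31 collagen genes were higher and 4 lower, against 17.1% and 23.6% of all genes. With the replicate block in a fit of only these 6 arrays, 7 were higher and 2 lower at an unadjusted p under 0.05, where 5.96% and 7.31% of all genes were. The higher ones were Col15a1, Col6a2, Col8a1, Col1a1, Col27a1, Col4a1 and Col6a1, and the lower ones Col14a1 and Col20a1. Col15a1 had the smallest p, with 1.50 and 95% limits of 1.06 to 1.94 (limma adjusted p = 0.291). None of the 31 passed, nor did any other gene.

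Across the 4 groups together, limma's F test passed for 0 of 31 collagen genes (0.0152% of all genes passed), and the smallest adjusted p was 0.153, for Col18a1. At an unadjusted p under 0.05 there were 8 of 31, against 7.89% of all genes.

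After the values had been seen, all 3 wound groups together were compared with uninjured vehicle, in which 0.243% of all genes passed. Col18a1 fell by 0.95 log2 units (-0.95 ± 0.13 SE, 9 arrays against 3; limma adjusted p = 0.0276), and it was the only one of 31 collagen genes to pass. Its groups did not overlap, which held for 1.27% of all genes on the lower side, and no collagen gene lay wholly higher, as 1.29% did. At an unadjusted p under 0.05 there were 4 lower and 1 higher, against 6.05% and 4.27% of all genes, and 24 of 31 differences lay below 0 against 46.7%. The call was lost in 8 of 12 omissions of a single array, with adjusted p up to 0.225 without uninjured vehicle replicate 2. It was kept without uninjured vehicle replicate 3, wound vehicle replicate 2, wound trimebutine replicate 1 or wound alprostadil replicate 3, and the difference stayed between -1.13 and -0.83 over the 12 omissions. Col7a1 (-0.57 ± 0.17, adjusted p = 0.256), Col4a5 (0.23 ± 0.09), Col4a2 (-0.58 ± 0.24), Col4a1 (-0.60 ± 0.27) and Col8a1 (-1.12 ± 0.51) did not pass. Without wound alprostadil replicate 3, Col7a1 passed as well (adjusted p = 0.0454).

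Trimebutine with wounding was also set against uninjured vehicle after the values had been seen, and 0.198% of all genes passed. The 2 comparisons with uninjured vehicle share its 3 arrays, as do those with wound vehicle. Col18a1 fell by 1.14 log2 units (-1.14 ± 0.16 SE, n = 3 per group; limma adjusted p = 0.0386). The call was lost in a fit of only the 6 arrays compared (limma adjusted p = 0.111) and in 8 of 12 omissions of a single array. It was kept without uninjured vehicle replicate 3, wound vehicle replicate 3, wound trimebutine replicate 1 or wound alprostadil replicate 3. Col15a1 was higher by 2.15 ± 0.63 (adjusted p = 0.375) and did not pass. Col7a1 and Col4a5 differed by -0.59 ± 0.21 and 0.30 ± 0.11, each at 0.549, Col17a1 by 0.13 ± 0.09 and Col14a1 by -0.93 ± 0.66. The median difference of the 31 genes was -0.05, with 18 below 0, against 48.9% of all genes. At an unadjusted p under 0.05 there were 2 lower and 2 higher, where 3.6% and 3.53% of all genes were. Groups did not overlap for Col18a1 and Col7a1 on the lower side and Col15a1, Col4a5 and Col1a1 on the higher, against 6.61% and 7.09% of all genes. For the fibrillar genes it was 0.01, and the 95% limits were -0.42 to 0.95 for Col1a1 and -0.82 to 1.27 for Col3a1.

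The genes of collagen making, binding and cleavage followed in part. Of 46 tested genes on 6 lists, 39 lay below 0 in wound vehicle against uninjured vehicle (median -0.26), where 48.6% of all genes did. With trimebutine against wound vehicle 11 lay below 0 (median 0.23), against 50% of all genes, and with alprostadil 12 did (0.11), against 40.6%. After injury the medians were -0.13 for the 11 hydroxylases and glycosyltransferases, -0.28 for the 9 chaperones and export factors, -0.37 for the 6 propeptide proteases and enhancers, -0.64 for the 4 lysyl oxidases, -0.21 for the 7 collagen receptors and -0.83 for the 9 collagen-cleaving proteases. With trimebutine against wound vehicle they were 0.27, 0.38, 0.37, 0.91, 0.14 and -0.11 in the same order. In limma 1 gene of the 46 passed in the injury comparison, where 0.0456% of all genes did. That gene, Mmp1b, entered the test only through the uninjured arrays, where it was high. In each drug against wound vehicle and between the drugs 0 passed, as did 0% of all genes. At an unadjusted p under 0.05, 11 of the 46 were higher and 3 lower with trimebutine against wound vehicle, where 6.38% and 3.05% of all genes were. With alprostadil against wound vehicle 1 was higher and 0 lower (1.07% and 1.68% of all genes), and between the drugs 1 was higher with trimebutine and 3 lower (2.5% and 1.92%).

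The gene that passed was Mmp1b, of the interstitial collagenase family. Its difference was -1.78 ± 0.18 log2 units (SE, n = 3 per group, limma adjusted p = 0.0228), with a direction fixed by the filter and an uncertain size. Mmp1b was 7.83, 7.73 and 7.84 on the uninjured arrays and 5.63 to 7.05 on the 9 wound arrays. On 8 of those 9, all wound vehicle and trimebutine arrays included, Mmp1b lay below the array median. It passed the filter on dim genes through the uninjured arrays, so it had to be higher there. The sizes of its differences from that group are uncertain, and its calls against that group are no separate support for a fall. The related gene Mmp1a was 11.32, 10.96 and 10.90 on the uninjured arrays, 10.42, 10.22 and 8.80 with wound vehicle, 8.73, 8.79 and 8.69 with trimebutine and 10.03, 9.97 and 10.26 with alprostadil. Mmp1a and Mmp1b are near copies, so their probe sets may share signal. The Mmp1b call was lost without uninjured vehicle replicates 1 or 2, wound vehicle replicate 1 or wound trimebutine replicate 2 (adjusted p up to 0.175), and in a fit of only the 6 arrays compared (0.0985). In trimebutine against uninjured vehicle the Mmp1b difference, with the same limits, was -1.88 ± 0.18 (limma adjusted p = 0.00745). In the same comparison Mmp1a fell by 2.33 (-2.33 ± 0.34, adjusted p = 0.0386). The Mmp1a call was lost in 9 of 12 omissions of a single array and kept when a wound vehicle array was left out. The Mmp1b call was lost in 3, without uninjured vehicle replicates 1 or 2 or wound trimebutine replicate 2. With all 3 wound groups against uninjured vehicle the Mmp1b difference was -1.58 ± 0.15 (limma adjusted p = 0.00604), again with the same limits. That call was lost without uninjured vehicle replicate 2 (0.0641), and Mmp1a differed by -1.51 ± 0.28 (0.0651).

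Further genes named by smallest p did not pass. In the injury comparison they were Mmp16, a membrane-type protease (-1.61 ± 0.34; SE, n = 3 per group; limma adjusted p = 0.128), and Tmem38b, a channel of the endoplasmic reticulum needed for collagen folding (-0.89 ± 0.23, 0.195). With trimebutine against wound vehicle they were Adamts14, a procollagen N-proteinase (-0.66 ± 0.19), the collagen receptor subunit Itga1 (1.46 ± 0.45) and Mmp1a (-1.08 ± 0.34), each at 0.528. With alprostadil against wound vehicle they were Mmp1b, Mmp16 (0.63 ± 0.34) and Adamts14 (-0.29 ± 0.19), each at 0.998. Between the drugs they were Mmp1b, Mmp1a (-1.35 ± 0.34) and P3h2, a prolyl 3-hydroxylase (-1.04 ± 0.35), each at 0.752. No difference is given for Mmp1b here, since it lay below the array median on 5 of the 6 arrays in each of these comparisons. In trimebutine against uninjured vehicle Plod2, a lysyl hydroxylase, differed by 0.59 ± 0.14 (0.239).

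A 2nd probe set with the same single symbol was present for 3 collagen genes. For Col6a1 its group means were 9.83, 9.04, 9.87 and 9.44 in uninjured vehicle, wound vehicle, trimebutine and alprostadil, in the same order of groups as the brighter one. For Col1a2 they were 9.52, 9.27, 9.64 and 9.41. For Col5a1 they were 7.48, 7.48, 7.61 and 7.36, so that the dimmer probe set showed no lower mean in wound vehicle where the brighter one differed by -0.53.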

How the data were processed

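RNA of 12 sphere cultures was measured on a mouse whole-transcript array, with 3 arrays in each of 4 groups. The authors deposited log2 expression values made with oligo and RMA, per the submitters' processing notes; no version is given there. The table held 41345 probe sets, of which 23521 had 1 symbol in the platform annotation, 1814 had several and 16010 had none, and those of the last 2 kinds were not used. The number of arrays limits the precision.

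The brightest single-symbol probe set stood for each gene, and 13153 genes that exceeded the array median on 3 or more arrays were fitted with limma 3.58.1 (R 4.3.3), with all 4 groups in 1 model. Two-sided p-values were adjusted over all tested genes (Benjamini-Hochberg, threshold 0.05). The fit was also run on simulated data with independent noise, which lack the arrays standing apart, and no result here rests on that run. The collagen genes, their classes and the other gene lists were chosen with earlier results of these data known, and lists are described by counts and medians only. Full statistics are given for the 6 collagen genes and the 3 genes of collagen making, binding or cleavage with the smallest p in each comparison. Markers named are Pdgfra, Fn1, Csf1r, Ctss, Pecam1 and Sox10; Krt5 was not analysed here.

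Groups share replicate numbers. Deviations of same-numbered arrays from their group means correlated above 0.1 in every pair for alprostadil against wound vehicle (0.19, 0.43 and 0.62) and between the drugs (0.57, 0.22 and 0.42). Differences within pairs were therefore also given for these comparisons, and not for the others. For trimebutine against wound vehicle the correlations were 0.29, -0.17 and 0.23. For wound vehicle against uninjured vehicle they were -0.36, -0.38 and -0.64, so correlations as large as the positive ones also arose with the opposite sign. Whether same-numbered arrays are true pairs is not known. The labels give only replicate numbers, and the check used the same values as the paired fits. Alternatives were a replicate block, other filters, other normalizations, mean probe sets, another variance model, array weights, fits of only the groups compared and omission of each array. Comparisons of all wound groups and of trimebutine with uninjured vehicle, and the block in fits of only the groups compared, were added after seeing the data.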

Additional observations from a re-analysis of the deposited data

How the results depend on the processing

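Results were recomputed under up to 22 other settings, 12 of them leaving out a single array; fits of only the groups compared could not be made for all wound groups or the F test, and genes not above the median on all 12 arrays have no value under that filter. Of 1164 values of named genes 1089 kept direction and side of the threshold, 40 lost the call, 34 gained it and 1 reversed: Col4a5 in alprostadil against wound vehicle, at 0.032 with array weights. With array weights, which ranged from 0.30 to 5.99, collagen genes passing numbered 22 for injury (median -0.81), 21 for trimebutine against wound vehicle, 18 for all wound groups, 5 for trimebutine against uninjured vehicle and 23 in the F test, where 38%, 30.7%, 31.7%, 16.5% and 40.3% of all genes passed. The cause was not tested. The filter on dim genes was also dropped, which adds the 13 untested genes. The median was then -0.051 for injury and, against wound vehicle, 0.08 for trimebutine and -0.027 for alprostadil. In trimebutine against uninjured vehicle 0 collagen genes passed with arrays centred on their medians (limma adjusted p of Col18a1 0.0717). The same held in fits of only the groups compared (0.111) and with the replicate block in such fits (0.0712). The replicate block in the full fit left 0 collagen genes passing in each of the 4 planned comparisons and the F test and 1 in each added comparison, so it changed no collagen call. With it Mmp1b lost its injury call (0.0621) and Mmp1a its call in trimebutine against uninjured vehicle (0.0619). Over single omissions, the count passing was 0 to 1 for injury, 0 for each drug against wound vehicle, between the drugs and in the F test, 0 to 2 for all wound groups and 0 to 1 for trimebutine against uninjured vehicle. Medians ran from -0.78 to -0.35 for injury, 0.30 to 0.84 for trimebutine and -0.090 to 0.43 for alprostadil against wound vehicle, 0.24 to 0.52 between the drugs, -0.31 to -0.17 for all wound groups and -0.07 to 0.03 for trimebutine against uninjured vehicle.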
